A study of Mus musculus with 15 samples.

Results

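Genomic imprinting leaves a gene active on the copy from a single parent, and many of the genes controlled in this way set the growth of the embryo and placenta. Their RNA was followed here for 10 such genes, H19, Igf2, Meg3, Dlk1, Peg3, Cdkn1c, Mest, Plagl1, Grb10 and Peg10, chosen by name and matched to the array through RefSeq transcripts. The array held 19 probes for the 10 genes, of 56605 distinct probes in all, and 8 of these probes, from 5 of the genes, were bright enough to be tested. Cells were Mouse Embryonic Fibroblasts (MEFs) of the Balb/c 3T3 line, a single clone (A31), so the arrays describe 1 line and not MEFs in general. There were 5 groups of 3 arrays: MEFs left untreated (control), and MEFs treated by TNFα at 10 ng/ml, by TGFß1 at 5 ng/ml, by IL-1β at 1 ng/ml, or by IL-6 at 20 ng/ml together with its soluble receptor sIL-6Rα at 25 ng/ml. No group carried a genetic change. The exposure was 24 h for the control, TNFα and TGFß1 arrays, and was not stated for the IL-1β and IL-6 groups. Arrays are named by their group and by the number that opens their label.

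Imprinted genes lie in clusters that share a control region, which is methylated on the copy from a single parent. H19, an untranslated RNA, lies next to Igf2, the main fetal growth factor of this family. Dlk1, Meg3, Rtl1, Rian, Mirg and Dio3 follow each other on chromosome 12. Genes active from the paternal copy, such as Igf2, Dlk1, Peg3 and Mest, are mostly known to promote growth, and genes active from the maternal copy, such as H19, Cdkn1c, Grb10 and Meg3, are mostly known to restrain it. An array measures the sum of both copies, and cannot tell them apart. In these bulk samples, fewer cells that make an RNA and less of that RNA per cell cannot be told apart either.

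Mest, Dlk1 and Peg3 were all lower with TNFα and with TGFß1, and their promoters are printed to show the sequence at which these genes start. RefSeq promoter windows, of 250 bases before the start to 50 after it, were found for 7 of the 10 genes (build GRCm38.p6). Mest (chr6:30737800-30738099, plus strand) has several windows, of which the CpG-rich one is shown. Dlk1 (chr12:109452573-109452872) is on the plus strand and Peg3 (chr7:6730370-6730669) on the minus strand. Capitals mark CG pairs, the bases at which DNA can be methylated. Methylation of these windows was not measured.
Mest: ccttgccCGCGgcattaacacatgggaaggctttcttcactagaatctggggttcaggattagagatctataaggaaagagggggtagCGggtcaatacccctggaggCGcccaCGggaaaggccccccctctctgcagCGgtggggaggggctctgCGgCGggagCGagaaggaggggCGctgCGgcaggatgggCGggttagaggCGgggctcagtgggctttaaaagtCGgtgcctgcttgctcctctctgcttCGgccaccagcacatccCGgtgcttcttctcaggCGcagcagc
Dlk1: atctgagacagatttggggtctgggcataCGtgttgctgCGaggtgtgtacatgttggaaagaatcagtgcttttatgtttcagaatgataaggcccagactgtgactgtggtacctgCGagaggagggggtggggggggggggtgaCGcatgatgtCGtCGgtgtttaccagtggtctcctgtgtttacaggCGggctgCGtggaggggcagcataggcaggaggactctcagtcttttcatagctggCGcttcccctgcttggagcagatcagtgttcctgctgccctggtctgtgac
Peg3: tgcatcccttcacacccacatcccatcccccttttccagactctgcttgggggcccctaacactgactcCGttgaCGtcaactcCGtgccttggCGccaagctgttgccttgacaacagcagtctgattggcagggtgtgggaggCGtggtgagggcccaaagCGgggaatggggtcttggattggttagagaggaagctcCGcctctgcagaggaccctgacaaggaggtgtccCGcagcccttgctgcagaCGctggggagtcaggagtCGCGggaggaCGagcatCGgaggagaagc
None of 5 motifs searched on both strands was in the 3 windows. These were AP-1 (TGANTCA), the 10-letter consensus of NF-kB, the SMAD element (CAGACA), YY1 (GCCATNTT) and the TATA box (TATAAA), which were in 7.81%, 8.46%, 21%, 6.05% and 13.6% of 32851 windows of the same length. This says only that these letters are not in these windows. The window of Mest held 17 CG pairs, that of Peg3 13 and that of Dlk1 9, against a median of 7 over all windows.

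H19 and Mest also carry microRNAs within their span on the genome. These are shown because a change in either host RNA may be read together with its microRNA, which was not analysed here. Capitals mark the seed, bases 2 to 8, and the seeds differ.
mmu-miR-675-5p (H19, chr7:142577112-142577133, minus strand): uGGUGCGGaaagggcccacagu
mmu-miR-335-5p (Mest, chr6:30741314-30741336, plus strand): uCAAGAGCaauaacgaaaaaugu

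Detection came first, since it decided which of the genes could be compared. Values are log2 signals with the 75th percentile of each array set to 0, so that a gene at 1 is 2-fold brighter than that percentile. For a probe to be tested, the scanner software had to mark it well above background on all 3 arrays of some group. H19, Dlk1, Peg3, Mest and Plagl1 passed. Igf2, Meg3, Grb10 and Peg10, with 10 probes together, were not well above background on any of the 15 arrays. Their signals ran from -8.01 to -5.27, while the dimmest probe marked well above background lay between -5.72 and -4.99 on the different arrays. H19 was therefore measured in every array without its neighbour Igf2, and Dlk1 without its neighbour Meg3. Levels of different probes are not compared here, since each probe has its own response.

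**Figure D1:**
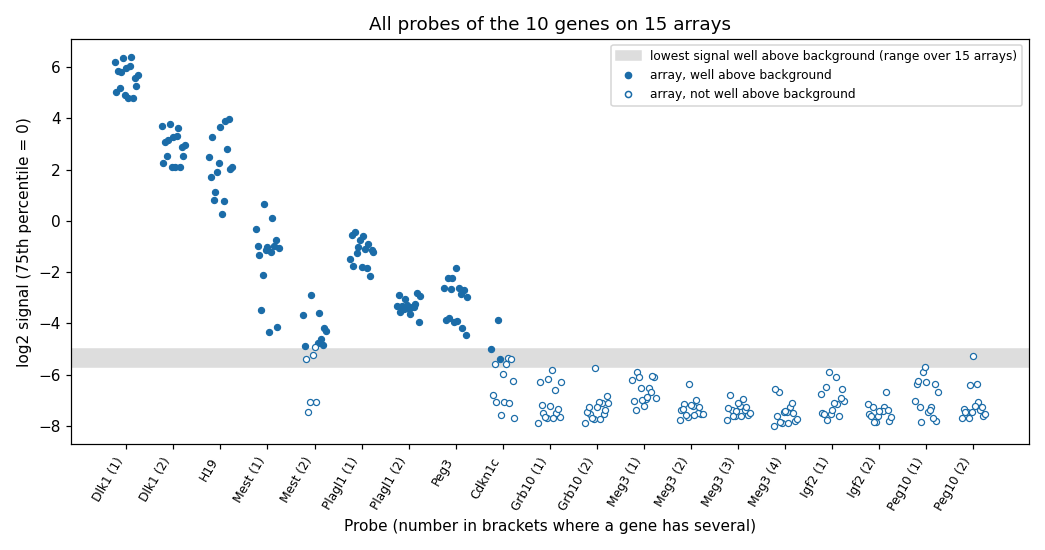
Each point is 1 of 15 arrays for 1 of 19 probes, with the log2 signal on the vertical axis (75th percentile of the array = 0), filled where the probe was well above background. The probes of Igf2, Meg3, Grb10 and Peg10 hold open points alone, in or below the grey band from -5.72 to -4.99 that marks the lowest signals called well above background.

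Cdkn1c, an inhibitor of cyclin-dependent kinases, lay at the limit of detection. It was well above background on 3 arrays, with values of -5.005 on control 1, -5.41 on control 6 and -3.87 on IL-1β 5. On the 3 TNFα arrays its signal was -7.08, -7.07 and -6.25, and on the 3 TGFß1 arrays -6.79, -7.57 and -7.12. Cdkn1c was thus well above background on 2 of 3 control arrays and on no TNFα or TGFß1 array. Control 11, at -5.35, was not well above background either, so no fold difference is given. Cdkn1c was not tested.

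Mest, a hydrolase of the endoplasmic reticulum that is used as a mark of growing adipose tissue, was the member that moved furthest with TNFα. It read -0.34, 0.64 and 0.10 on the control arrays and -3.49, -4.35 and -4.16 on the TNFα arrays. Every TNFα array lay below every other array of the study. Mest was 17.6-fold lower with TNFα (log2 difference -4.14, SE 0.32, adjusted p = 6.5e-06). With another background correction (normexp) the difference was -2.88, and it was called. The 15 arrays were run on 2 slides. Most control, IL-1β and IL-6 arrays were on slide 1, and most TNFα and TGFß1 arrays on slide 2. The difference was -4.04 within slide 1, where TNFα 14 was the only TNFα array. It was -4.56 within slide 2, where control 6 was the only control array. With TGFß1, Mest read -0.98, -1.14 and -0.97, also below all control arrays. This was a 2.25-fold decrease (log2 difference -1.17, SE 0.32, adjusted p = 0.0182). The call was lost without control 6 (-0.91, adjusted p = 0.0751), without TGFß1 7 (-1.11, adjusted p = 0.0517) and over the mean of both Mest probes (-1.34, adjusted p = 0.0604). Set directly against each other, the TNFα arrays were 7.82-fold lower than the TGFß1 arrays (log2 difference -2.97, adjusted p = 4.2e-05). That difference was -1.82 with normexp and was called.

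With IL-1β, Mest read -2.13, -1.23 and -1.05, and with IL-6 it read -1.35, -1.04 and -0.74. In both groups all 3 arrays lay below the 3 control arrays, without overlap. The log2 difference from control was -1.60 with IL-1β (SE 0.32, adjusted p = 0.0871) and -1.18 with IL-6 (SE 0.32, adjusted p = 0.542). Neither passed the test. With the slide as a block, the IL-1β difference did (adjusted p = 0.0227), in a fit that called 0.358% of all probes. The IL-1β arrays were 5.79-fold above the TNFα arrays (log2 difference 2.53, SE 0.32, adjusted p = 6.23e-04). With normexp that difference was 1.48 and was called, and over the mean of both Mest probes it was 1.69 and was not (adjusted p = 0.0619).

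The other Mest probe was dimmer. It was well above background on all 3 control arrays, at -3.69, -2.88 and -3.61, but on 1 of 3 TNFα arrays, at -4.20. The other two TNFα arrays, at -7.47 and -7.07, have only an upper limit. The array that measured it was 0.58 below the control array of its run. The fitted log2 difference of -2.85 (SE 0.79, adjusted p = 0.0329) passed the test but rests on the 2 signals not well above background, so its size is not a measured one. With TGFß1, where 2 of 3 arrays were well above background, the difference of -1.51 was not called (adjusted p = 0.19). For TNFα against TGFß1 this probe gave -1.33 with overlapping groups and was not called (adjusted p = 0.321). The difference was 1.02 within slide 1, from TNFα 14 and TGFß1 7 alone, and -2.51 within slide 2.

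**Figure D2:**
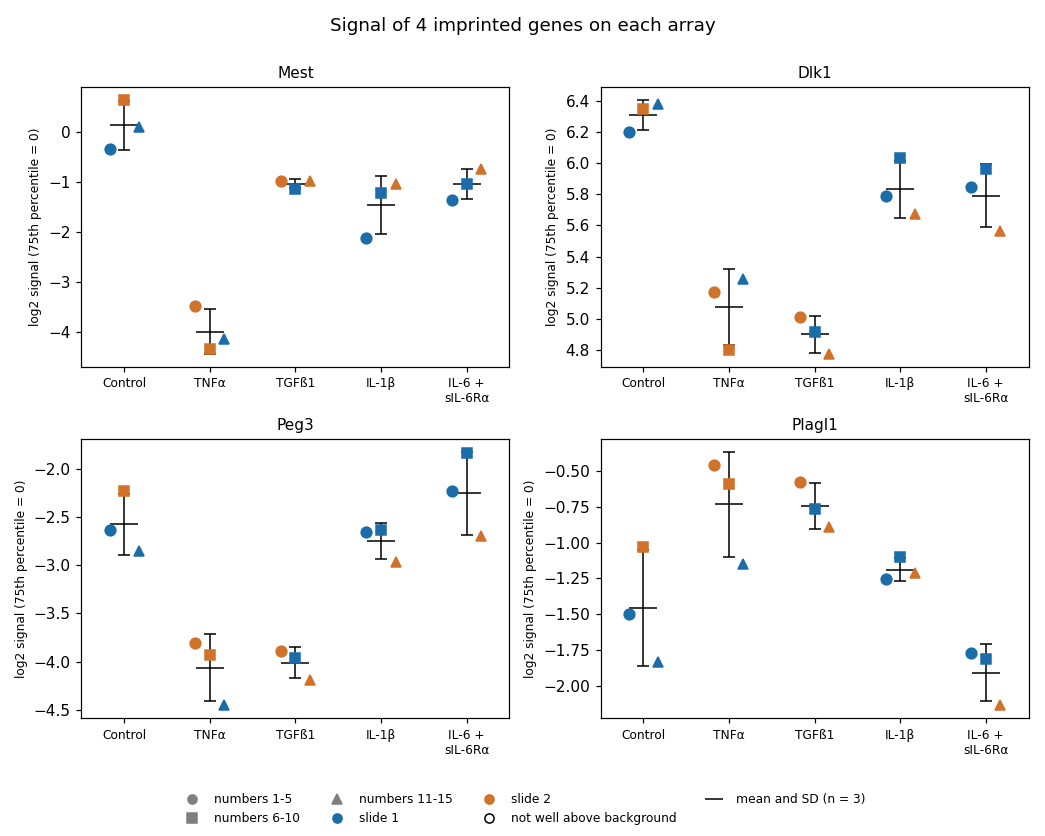
Log2 signal (75th percentile of each array = 0) of Mest, Dlk1, Peg3 and Plagl1 on each array, by group, with the mean and SD of 3 arrays as bars. Colour gives the slide and shape the run of label numbers. The TNFα points of Mest lie between -4.35 and -3.49, below all others, while Dlk1 and Peg3 are lowest in both the TNFα and the TGFß1 group.

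Dlk1, a membrane protein related to the Notch ligands that keeps preadipocytes from maturing, fell with TNFα and TGFß1 alike. It read 6.20, 6.35 and 6.38 on the control arrays. The TNFα arrays read 5.17, 4.80 and 5.25, and the TGFß1 arrays 5.01, 4.92 and 4.77. No array of either group reached a control array. The decrease was 2.35-fold with TNFα (log2 difference -1.23, SE 0.15, adjusted p = 1.99e-04) and 2.65-fold with TGFß1 (log2 difference -1.41, SE 0.15, adjusted p = 5.33e-05). The direct difference, TNFα minus TGFß1, was 0.18, with a 95% confidence interval of -0.15 to 0.50. A second Dlk1 probe fell by 1.32 on the log2 scale with TNFα and by 1.54 with TGFß1, both called.

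With IL-1β, Dlk1 read 5.79, 6.03 and 5.67, and with IL-6 it read 5.85, 5.96 and 5.57. These 6 arrays lay between the control arrays and the arrays of TNFα and TGFß1, without overlap. The log2 difference from control was -0.48 with IL-1β (95% interval -0.80 to -0.15, adjusted p = 0.641) and -0.52 with IL-6 (95% interval -0.84 to -0.19, adjusted p = 0.66). Neither was called. Dlk1 was 1.69-fold higher with IL-1β than with TNFα (log2 difference 0.76, SE 0.15, adjusted p = 0.0115). That call was lost without IL-1β 10 (0.66, adjusted p = 0.0637), with the array median subtracted (adjusted p = 0.0771) and with only these 2 groups in the fit (adjusted p = 0.0896).

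Mirg, a long RNA that hosts microRNAs and lies downstream of Dlk1 in the same cluster, was among the 3 genes whose signals followed Dlk1 most closely. Across the 15 arrays, Pearson's r with Dlk1 was 0.966 for Nim1k, 0.959 for Snapc5 and 0.958 for Mirg, the highest of 13486 genes compared. All points share the same 5 groups, slides and RNA samples. Mirg read -1.62, -1.64 and -1.55 on the control arrays, and -3.84, -5.05 and -3.58 on the TNFα arrays, of which TNFα 9 was not well above background. The TGFß1 arrays read -3.95, -4.08 and -4.31. The log2 difference of Mirg from control was -2.55 with TNFα and -2.51 with TGFß1. Mirg is described here because its values follow those of Dlk1 on these arrays, which fixes the order of its groups, so no test is given. Rian, which lies between Meg3 and Mirg, was not well above background on every array of any group.

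**Figure D3:**
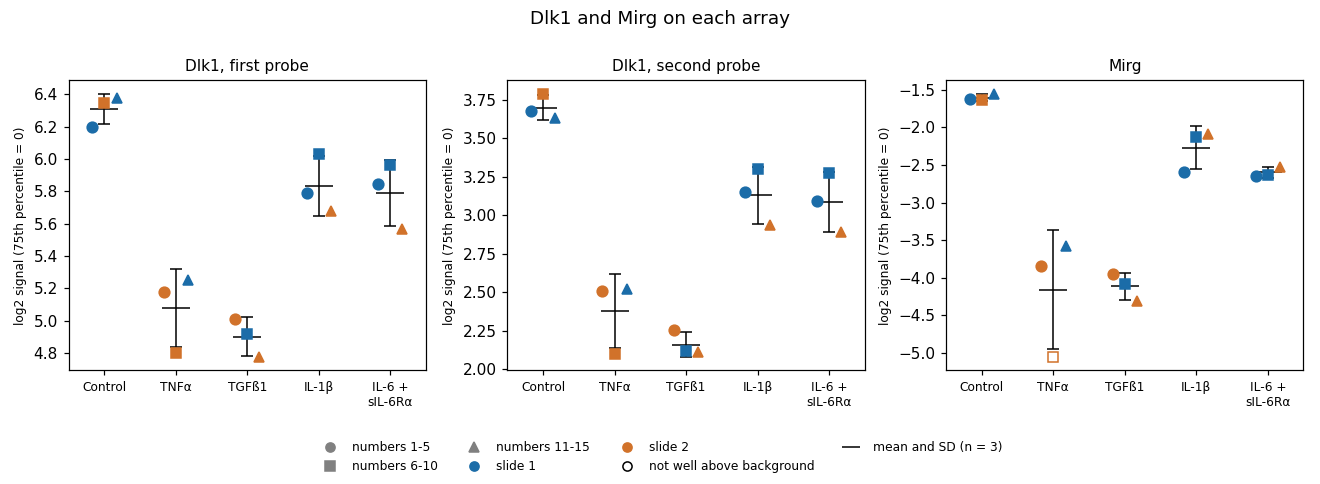
Log2 signal (75th percentile of each array = 0) of both Dlk1 probes and of Mirg on each array, by group, with the mean and SD of 3 arrays as bars and open points where the probe was not well above background. Mirg was picked for following Dlk1, so its pattern is no separate result. In all 3 panels the control arrays are highest, the IL-1β and IL-6 arrays intermediate, and the TNFα and TGFß1 arrays lowest.

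Peg3, a zinc finger protein made from the paternal copy, separated TNFα and TGFß1 from the other groups. It read -2.63, -2.23 and -2.85 on the control arrays. The TNFα arrays read -3.80, -3.93 and -4.46 and the TGFß1 arrays -3.89, -3.96 and -4.20, all below the control arrays. Peg3 was 2.81-fold lower with TNFα (log2 difference -1.49, SE 0.24, adjusted p = 0.00145) and 2.72-fold lower with TGFß1 (log2 difference -1.44, SE 0.24, adjusted p = 0.00102). With normexp these differences were -0.67 and -0.65, and both were called. The direct difference of -0.05 had a 95% confidence interval of -0.56 to 0.47.

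The IL-1β arrays read -2.66, -2.63 and -2.96 for Peg3, and the IL-6 arrays -2.22, -1.83 and -2.70. Both ranges overlapped that of the control. The log2 difference from control was -0.18 with IL-1β (95% interval -0.69 to 0.34) and 0.32 with IL-6 (95% interval -0.19 to 0.84). Set against TNFα, Peg3 was 2.49-fold higher with IL-1β (log2 difference 1.31, SE 0.24, adjusted p = 0.00668). With normexp this difference was 0.56, below the 1.5-fold limit. Brinp3, Fam161a and Sncg followed Peg3 most closely over the 15 arrays (Pearson's r 0.963, 0.961 and 0.958).

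Plagl1, a zinc finger transcription factor that is known to act on other imprinted genes, was the only tested member called higher with a cytokine, and its call was weak. Its brighter probe read -1.50, -1.03 and -1.84 on the control arrays and -0.46, -0.59 and -1.15 on the TNFα arrays, 1 of which overlapped the control range. The TGFß1 arrays read -0.57, -0.76 and -0.89, above all control arrays. The log2 difference was 0.72 with TNFα (SE 0.21, adjusted p = 0.0432) and 0.71 with TGFß1 (SE 0.21, adjusted p = 0.0284). The second probe, well above background on all 15 arrays, gave -0.39 with TNFα and 0.10 with TGFß1, neither called. Over the mean of both probes the differences were 0.17 (adjusted p = 0.607) and 0.41 (adjusted p = 0.125). The TNFα call was lost without control 1, control 11, TNFα 4 or TNFα 9, with differences of 0.70, 0.53, 0.59 and 0.65. The TGFß1 call was lost without control 1, control 11, TGFß1 2 or TGFß1 7, with differences of 0.69, 0.52, 0.63 and 0.72. Both calls were also lost with no filter on dim probes (adjusted p = 0.101 and 0.0667) and with only the 2 groups compared in the fit (adjusted p = 0.171 and 0.0755). With IL-1β the brighter probe differed from control by 0.27 and with IL-6 by -0.45, and neither was called.

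H19, whose RNA is made from the maternal copy, varied between arrays of a group, with an SD of 1.01 over the control arrays. It read 2.49, 1.91 and 3.88 on the control arrays and 0.79, 0.25 and 2.02 on the TNFα arrays. TNFα 14 was above control 6, so that these groups overlapped. The log2 difference was -1.74 (SE 0.55), and it was not called (adjusted p = 0.0566). It was called without control 6, at -2.16 (adjusted p = 0.0358), and without TNFα 14, at -2.24 (adjusted p = 0.0243). It was also called with quantile normalisation (adjusted p = 0.0479) and with normexp (adjusted p = 0.0494). The IL-1β arrays read 1.12, 0.77 and 2.08, the TGFß1 arrays 1.73, 2.25 and 2.82, and the IL-6 arrays 3.28, 3.67 and 3.95. The log2 difference from control was -1.44 with IL-1β (adjusted p = 1), -0.50 with TGFß1 (adjusted p = 0.546) and 0.87 with IL-6 (adjusted p = 1). None of these was called.

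The spread of H19 followed the array numbers. Label numbers fall into 3 runs of 5 arrays, and a run has 1 array per group. The highest H19 value of all 5 groups was in the last run, numbers 11 to 15. Compared within a run, H19 was lower with TNFα than in the control by 1.70, 1.66 and 1.86 on the log2 scale. With IL-1β it was lower by 1.37, 1.13 and 1.80. With TGFß1 the within-run differences were -0.77, 0.34 and -1.06, and with IL-6 they were 0.79, 1.76 and 0.07. With the run and the slide as blocks, H19 was called lower with TNFα (log2 difference -1.58, adjusted p = 2.97e-04) and with IL-1β (-1.44, adjusted p = 0.00708), and lower with TNFα than with TGFß1 (-1.24, adjusted p = 8.69e-04). That fit called 15.4% of all probes for TNFα, 1.09% for IL-1β and 16.1% for TNFα against TGFß1. With the run alone as a block, TNFα was called (adjusted p = 0.00195) and IL-1β was not (adjusted p = 0.0696). The labels do not say what a run is, and the part of a shared experiment or a shared handling in these values was not tested.

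**Figure D4:**
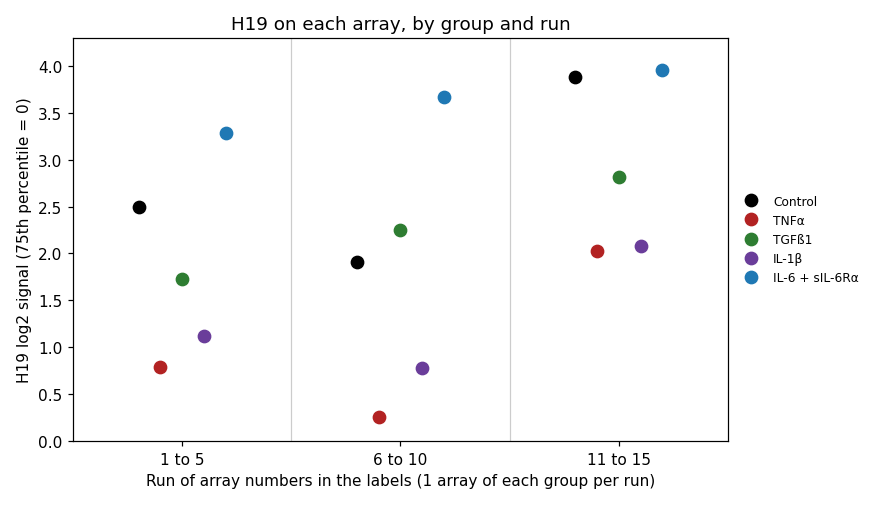
H19 log2 signal (75th percentile of each array = 0) on each of the 15 arrays, in 3 runs of label numbers, coloured by group. In each run the TNFα array is lowest, 1.66 to 1.86 below the control array of its run, and in the run of 11 to 15 all 5 groups have their highest value.

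Counted over the 5 tested genes, 3 were called lower (Mest, Dlk1, Peg3) and 1 higher (Plagl1) with TNFα, where 10.2% of the 29334 tested probes were called (6.06% lower, 4.12% higher). With TGFß1 the same 4 genes were called in the same directions, where 18% of all tested probes were called (10.8% lower, 7.17% higher). Both comparisons use the same control arrays. A call required an adjusted p (Benjamini-Hochberg) under 0.05 and a change of at least 1.5-fold in limma. The median log2 difference over the 5 genes was -1.49 with TNFα and -1.17 with TGFß1, beside 0.04 and 0.05 over all tested probes. None of the 5 genes was called with IL-1β or with IL-6, where 0.252% and 0.0648% of all probes were called. At an unadjusted p under 0.05, 3 of the 5 genes passed with IL-1β (Mest, Dlk1, H19) and 2 with IL-6 (Mest, Dlk1), all of them lower, where 3.71% and 3.26% of all tested probes passed. In the direct comparisons, Mest alone was called for TNFα against TGFß1, where 11.8% of all probes were called. Mest, Dlk1 and Peg3 were called higher with IL-1β than with TNFα, where 4.83% of all probes were called and 3.11% were called higher. The arrays of a cytokine and of the control did not overlap for 3 of the 5 genes with TNFα, 4 with TGFß1, 2 with IL-1β and 2 with IL-6, beside 29.6%, 39.1%, 5.38% and 5.19% of all probes.

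**Figure D5:**
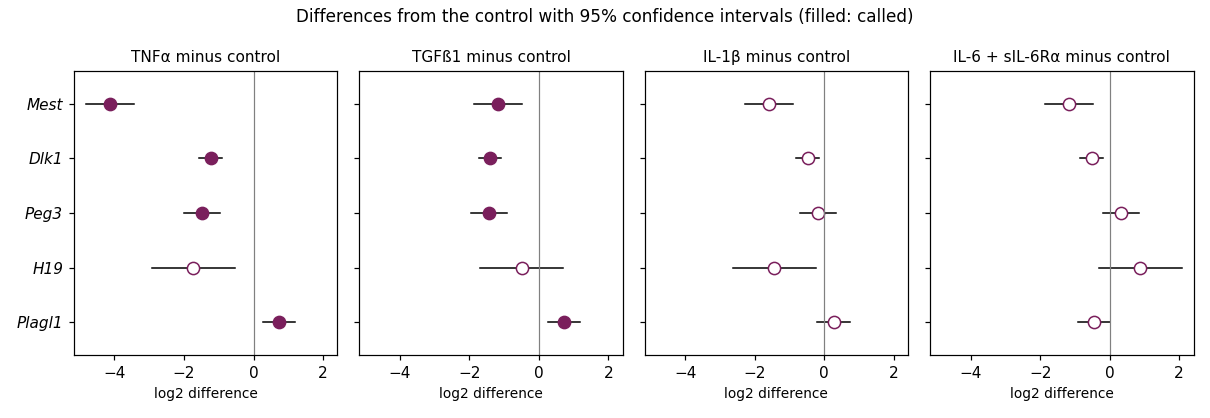
Log2 difference from the control (horizontal axis) of the 5 tested genes with each cytokine, 3 arrays per group, with 95% confidence intervals from limma. Filled points were called, and these are Mest, Dlk1, Peg3 and Plagl1 with TNFα and with TGFß1. Mest with TNFα, at -4.14, lies furthest from 0.

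Of 57 other genes listed as imprinted, 32 were tested. Whether each of them is imprinted in these cells was not measured. Mirg, described above for following Dlk1, is among the 32, so the counts of this list are not separate from Dlk1. With TNFα, 7 were called lower and 1 higher, beside 6.06% and 4.12% of all tested probes. With TGFß1, 9 were called lower and 3 higher, beside 10.8% and 7.17% of all tested probes. None was called with IL-1β or IL-6 in limma, where 3 and 2 of the 32 passed at an unadjusted p under 0.05, beside 3.71% and 3.26% of all probes. With slide and run as blocks, decorin (Dcn) was called higher with IL-1β (log2 difference 1.88, adjusted p = 0.0011). That fit called 1.09% of all probes with IL-1β. The same fit called 1 of the 32 lower with IL-6, where 0 to 228 of all probes were called over the alternative settings. The median log2 difference of the 32 was -0.31 with TNFα and -0.14 with TGFß1. Slc38a4, an amino acid transporter, fell by 0.88 on the log2 scale with TNFα (adjusted p = 0.0194) and by 1.91 with TGFß1 (adjusted p = 8.91e-05). Dcn, a matrix proteoglycan, rose by 1.91 with TNFα (adjusted p = 0.0102) and fell by 1.82 with TGFß1 (adjusted p = 0.0079), which the direct comparison also showed (log2 difference 3.73, adjusted p = 6.22e-05). Slc22a18, the neighbour of Cdkn1c, was not well above background on any TNFα or TGFß1 array. It was at least 3.27-fold lower with TNFα and at least 3.47-fold lower with TGFß1. Slc22a18 passed the detection filter only through other groups, where it was brighter, so no p is given. Tfpi2, a protease inhibitor, was well above background on no control array and was at least 8.68-fold higher with TGFß1. Tfpi2 likewise passed the filter only through cytokine groups, so no p is given. Both genes are among the calls counted above. Copg2, the neighbour of Mest, was looked at after its values were seen. It fell by 0.64 with TNFα (adjusted p = 0.0121) and by 0.80 with TGFß1 (adjusted p = 0.00206).

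Igf2 acts through the receptors Igf1r and Insr, and is cleared by the imprinted receptor Igf2r. Of 18 genes for these receptors and their signalling, 17 were tested. With TNFα, 1 was called higher and 2 lower, where 10.2% of all tested probes were called. With TGFß1, 1 was called lower, where 18% of all tested probes were called. With TNFα, Grb14, an adaptor related to Grb10 that restrains the insulin receptor, rose by 1.80 on the log2 scale (adjusted p = 2.77e-04), while the receptor substrate Irs2 fell by 1.16 (adjusted p = 0.00647) and the transcription factor Foxo1 fell by 0.69 (adjusted p = 0.0414). Foxo1 was not called with the slide as a block. With TGFß1 the only call was the substrate Irs1, which fell by 1.83 (adjusted p = 4.48e-05). Irs1 differed between the cytokines by 2.26, TNFα minus TGFß1 (adjusted p = 6.12e-06). Igf1r, Igf2r and Insr were not called in any of the 6 comparisons. None of the 17 was called with IL-1β or IL-6 in limma, where 1 of them passed with each at an unadjusted p under 0.05, beside 3.71% and 3.26% of all probes. With the slide as a block, Grb14 was called higher with IL-1β (log2 difference 1.13, adjusted p = 0.0093, and 0.0928 without the block).

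Of 17 factors that keep or remove the methylation of imprinted regions, 16 were tested. With TNFα, 2 were called higher and 2 lower, where 10.2% of all tested probes were called. With TGFß1, 1 was called higher and 2 lower, where 18% of all tested probes were called. Zfp57, a zinc finger protein that binds methylated imprinted regions, was called higher with TNFα (adjusted p = 0.0188) and with TGFß1 (adjusted p = 0.00645). It was well above background on 1 of 3 control arrays, at -4.64, and on all TNFα arrays (-3.96 to -3.65) and TGFß1 arrays (-4.04 to -3.45), so that the size of the difference is not a measured one. The demethylating enzyme Tet2 fell by 0.85 with TNFα (adjusted p = 0.0126) and by 0.80 with TGFß1 (adjusted p = 0.0107). Tet1 fell by 0.88 with TNFα (adjusted p = 0.00852), where Dnmt3l, a partner of the DNA methyltransferases, rose by 0.79 (adjusted p = 0.0103). With TGFß1 the maintenance methyltransferase Dnmt1 fell by 0.59 (adjusted p = 0.0404), which was not called with the slide as a block. None was called with IL-1β or IL-6 in limma, where 1 of the 16 passed with each at an unadjusted p under 0.05, beside 3.71% and 3.26% of all probes.

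None of 12 proliferation markers, all tested, was called in any of the 6 comparisons in limma. At an unadjusted p under 0.05, 3 of the 12 passed with TGFß1, 2 for TNFα against TGFß1 and none in the others, beside 36.6% of all probes with TGFß1, 27.2% for TNFα against TGFß1 and 26.6% with TNFα. Their median log2 difference was -0.04 with TNFα and -0.07 with TGFß1.

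The identity of the cells and the effect of each cytokine were checked on other genes. All 9 fibroblast markers were well above background on all 15 arrays, and Cdh5, Kdr, Ptprc, Adgre1, Myod1, Myog, Des and Cdh1, which mark endothelial, blood, muscle and epithelial cells, on none. Other markers of these cell types were found. Cd68 and Itgam, of 4 leukocyte markers, and Pecam1, of 3 endothelial markers, were well above background on all 15 arrays. Of 4 epithelial markers, Krt18 was so on 10 arrays, Krt8 on 4 and Epcam on 1. The summed log2 level of the leukocyte markers was 2.64 to 3.78 on the control arrays, 2.83 to 3.81 with TNFα, 2.82 to 3.67 with TGFß1, 2.76 to 3.89 with IL-1β and 2.69 to 3.85 with IL-6, so that all groups overlapped. That of the epithelial markers was -2.82 to -1.39 with TGFß1, above its range of -4.59 to -3.03 in the control. Of 10 genes listed as checks of the cytokine response, 5 were called higher and 1 lower with TNFα, beside 4.12% and 6.06% of all tested probes. With TGFß1, 3 were called higher and 5 lower, beside 7.17% and 10.8%. With IL-1β 5 were called higher and with IL-6 1, where 0.252% and 0.0648% of all probes were called. Those called higher included Saa3 and Cxcl1 with TNFα and IL-1β, Smad7 with TGFß1, and Socs3 with IL-6. Adipocyte markers moved with the groups. All 3 were called lower with TNFα, where 6.06% of all tested probes were called lower. Adipoq fell by 4.44 on the log2 scale, Fabp4 fell by 3.23 and Plin1 was at least 2.93-fold lower. Plin1 passed the detection filter only through groups other than TNFα. With TGFß1, where Fabp4 fell by 1.502, 1 of the 3 was called lower, beside 10.8% of all tested probes. The summed log2 level of the 3 markers was 1.79 to 2.14 on the control arrays, -1.69 to -0.94 with TNFα, 0.03 to 1.23 with TGFß1, 1.40 to 2.32 with IL-1β and 1.54 to 2.45 with IL-6. It did not overlap between the control and the TNFα or TGFß1 arrays, where Mest, Dlk1 and Peg3 were called lower. With IL-1β and IL-6 the summed level overlapped the control. There, Mest and Dlk1 still lay below all control arrays, without a call. Of the 9 fibroblast markers, 4 were called lower with TNFα, beside 6.06% of all tested probes. Their summed log2 level was 9.67 to 9.98 with TNFα against 10.25 to 10.50 in the control. With TGFß1, 2 of the 9 were called higher and 2 lower, beside 7.17% and 10.8% of all tested probes. The epithelial keratin Krt8 was at least 3.32-fold higher with TGFß1, but it could be tested only through a group where it was bright. The part of these shifts in the values of the imprinted genes was not tested.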

How the data were processed

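RNA of 15 samples was hybridised to one-colour Agilent arrays, and the authors extracted the spots with Feature Extraction 10.7.3.1. The deposited values are processed intensities, background-subtracted by the scanner software and not normalised between arrays (75th percentile 508 to 683). They were set to log2 minus each array's 75th percentile, and spots of a probe were averaged. All 15 arrays were fitted by group with limma 3.58.1 in R 4.3.3 over 29334 probes. Probes were named through RefSeq (GRCm38.p6), and the brightest probe stood for a gene. Array number limits the precision. The paper gives 3 independent experiments, but the labels tie no array to one. The members and lists were chosen with earlier results of these data known. All members were named, with up to 4 called genes per list and comparison and the 3 genes most like a called member. Alternatives were other scalings, normexp on median signals (no mean signal was in the columns), filters, slide and run blocks, fewer arrays and mean probes. The run block without the slide was chosen after seeing the data. The fit was tested on simulated data with independent noise on each array. These held no slide or run effect, so the test does not cover such effects.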

Additional observations from a re-analysis of the deposited data

How the results depend on the processing

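Alternatives other than leaving out 1 array gave 330 values over the 5 tested genes and 6 comparisons. Of these values, 304 kept their direction and side of the threshold. The fits of only the 2 groups compared are among these alternatives. No alternative removed the calls of Mest, Dlk1 and Peg3 with TNFα, or of Dlk1 and Peg3 with TGFß1. The number of members called with IL-1β rose from 0 to 1 with the array median, normexp or the slide as a block, and to 2 with slide and run. With TGFß1 it fell from 4 to 2 over the mean of a gene's probes (Mest and Plagl1 were lost), and was 2 to 4 when 1 array was left out (2 without TGFß1 7). For TNFα against TGFß1 it rose from 1 to 2 with the run as a block, with or without the slide. Differences that changed sign were uncalled. Plagl1, TNFα minus TGFß1, was -0.00504 with quantile normalisation, -0.11 with the array median, -0.0184 with normexp, -0.24 over both probes and -0.13 to 0.22 without 1 array. Without 1 array, Peg3 in that comparison was -0.18 to 0.15, H19 with TGFß1 -0.92 to 0.0633, and H19 for IL-1β against TNFα -0.0838 to 0.80. The cause was not tested. Over all probes, calls ranged from 1900 to 4513 (2986 in the main setting) with TNFα, 3482 to 6575 (5283) with TGFß1, 16 to 320 (74) with IL-1β, 0 to 228 (19) with IL-6 and 670 to 3073 (1416) for IL-1β against TNFα. The array median moved the median of all probes to -0.14 for TNFα against TGFß1. The groups share no replicate numbers in the labels, so arrays were paired only through the runs, as a block. Signals near background limit Cdkn1c and the second Mest probe.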
